A study of Mus musculus with 20 samples.

Results

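The genes of polyamine metabolism were compared across 3 kinds of MYC-driven mouse liver tumor and non-tumor liver. They were 10 genes, Odc1, Srm, Sms, Amd1, Sat1, Smox, Paox, Oaz1, Oaz2 and Azin1, taken by symbol from the 50559 rows of the 2 count tables. Each symbol had 1 row in both tables, and all 10 passed the filter on low counts. RNA sequencing gave 20 libraries from C57BL/6J mice without a germline modification, 5 in each of 4 groups. Tumors were made by hydrodynamic gene transfer, in which plasmids injected into the tail vein reach a share of the hepatocytes. The Sleeping Beauty transposase inserts transposon plasmids into the genome. All 3 tumor groups received MYC under the EF1a promoter. It was combined with human FGF19 (FGF19+MYC), with Aldafermin, an engineered analog of FGF19 (Aldafermin+MYC), or with a guide RNA and Cas9 against Trp53 (sgTrp53+MYC). The methods name a LentiCRISPRv2 plasmid for the guide, and whether it was inserted is not stated. Each tumor library came from 1 snap-frozen tumor of a different mouse. The livers are labelled non treated, whereas the methods describe animals that received an RFP plasmid. The treatment field of the sgTrp53+MYC tumors reads none, and their group was taken from the sample titles. The study set tumors driven by FGF19 or Aldafermin against tumors without p53 and against liver, and the same comparisons were made here gene by gene.

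Polyamines are small positively charged molecules that bind nucleic acids and are needed for growth. Ornithine decarboxylase makes putrescine from ornithine, spermidine synthase and spermine synthase extend it, and both take their aminopropyl group from decarboxylated S-adenosylmethionine. Spermine and spermidine are broken down after acetylation or by direct oxidation. Antizymes bind ornithine decarboxylase and send it to the proteasome, and the antizyme inhibitor competes for the antizyme. Odc1 is a textbook target of MYC.

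Counted reads ran from 18004977 to 66354724 per library. The livers expressed the 6 hepatocyte markers at a sum of 181000 to 227000 CPM (read counts scaled to a common library size), against 3160 to 28400 in the 15 tumors. The 4 markers of fetal or tumor hepatocytes (Afp, Gpc3, H19, Igf2) summed to 2.80 to 57.3 CPM in livers and 14800 to 32600 in tumors, and the proliferation markers Mki67 and Top2a to 2.71 to 12.3 and 232 to 531. Trp53 itself was at 46.8 ± 22.6 CPM (SD, n = 5) in sgTrp53+MYC tumors, below the 138 ± 32.5 in Aldafermin+MYC and 139.5 ± 17.9 in FGF19+MYC tumors, and at 32.8 ± 2.98 in livers. The row of mouse Myc stood at 3.06 to 4.33 CPM on average in the tumor groups and 7.45 in livers, and whether transgene reads fall on it is not known. All 5 sgTrp53+MYC libraries were deposited in a separate table. On average 5.87% of their reads were not aligned and 12.9% were ambiguous, against 20.6% to 26.4% and 4.48% to 4.81% in the other groups, and the effects of table and of tumor kind cannot be told apart. In such bulk samples, fewer cells of a type and less RNA per cell cannot be told apart either.

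Levels are given in CPM on libraries scaled by the TMM method, which assumes that most genes do not differ between libraries. This choice bears on every comparison with liver. Tumors with FGF19 and with Aldafermin were pooled (10 tumors) unless stated. Against liver, most genes did differ after this scaling. The share was 73.7% of all genes tested in the pooled tumors and 69.9% in sgTrp53+MYC tumors (edgeR's quasi-likelihood test, adjusted p under 0.05). The median log2 fold change against liver of all 14333 genes tested was 0.096 for the pooled tumors and 0.071 for the sgTrp53+MYC tumors, and with total counts as the only scaling it was 0.939 and 0.954. Rises reported below held under both scalings, and each gene that changes sign between them is named.

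The 4 synthesis genes rose together in tumors of all 3 kinds. In the pooled tumors, 4 of the 10 genes were higher than in liver, all 4 of them synthesis genes, where 39.2% of all genes tested were higher. Srm rose most, 23.1-fold, followed by Sms (9.14-fold), Odc1 (6.4-fold) and Amd1 (3.14-fold). In sgTrp53+MYC tumors the same 4 genes were higher than in liver, where 36.9% of all genes were, by 16.5-fold, 11.1-fold, 6.27-fold and 4.19-fold in that order. For each of these 4 genes, all 15 tumors lay above all 5 livers. How many of all genes tested separate in this way was not counted.

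**Figure D1:**
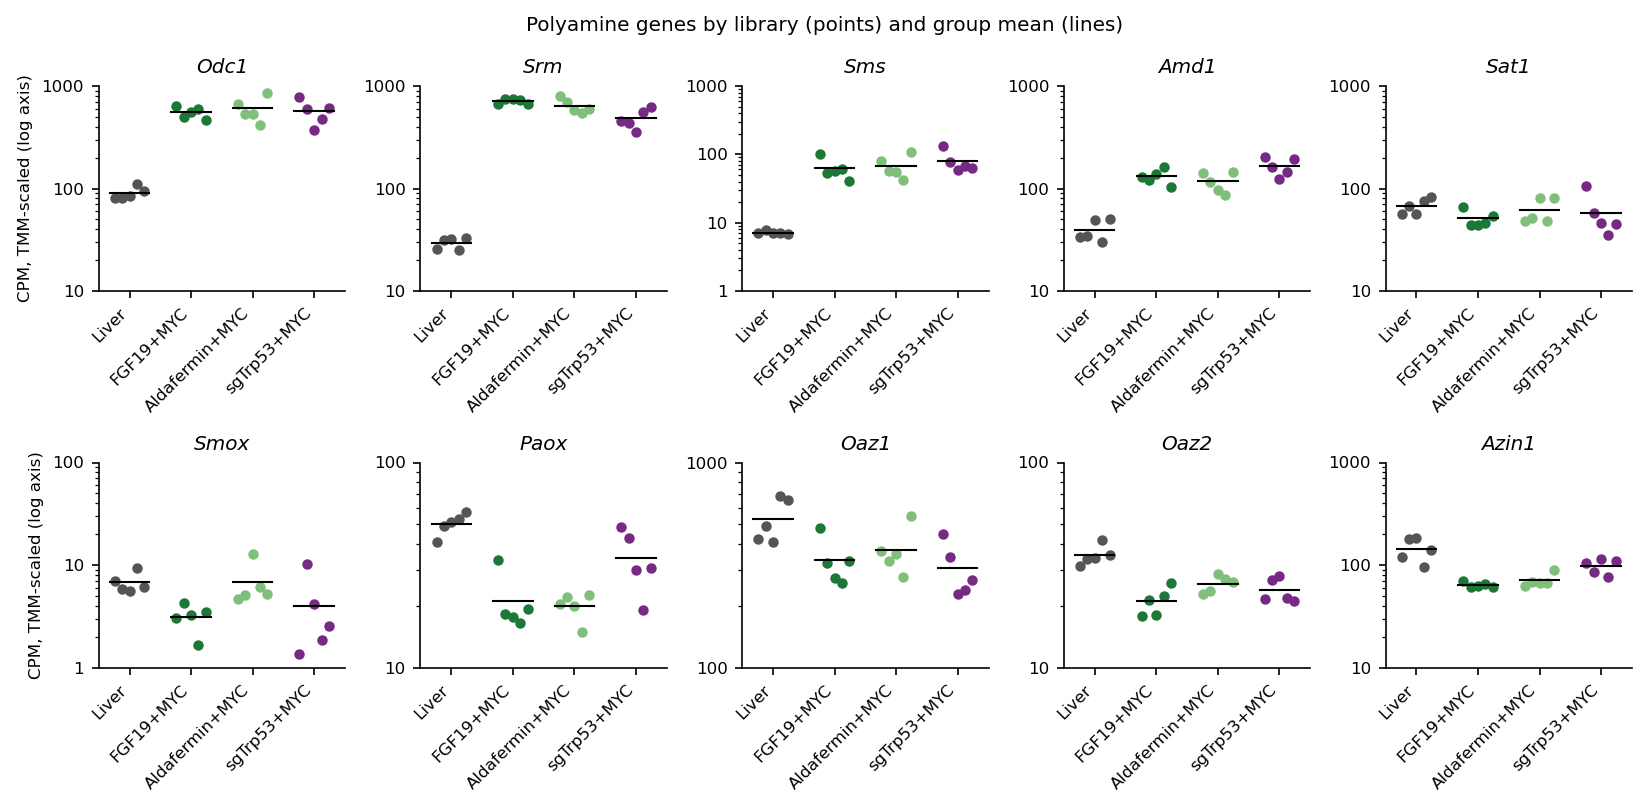
Level of each polyamine gene in CPM after TMM scaling on a log axis, with a point per library and a line at the mean of the 5 libraries of a group. Odc1, Srm, Sms and Amd1 lie higher in all 15 tumors than in all 5 livers, whereas the levels of Sat1, Smox and Oaz1 overlap between livers and tumors. Paox, Oaz1, Oaz2 and Azin1 lie lower in tumors on this scale, and with total counts only the sign turns for Oaz1 and Oaz2 in both comparisons with liver and for Paox and Azin1 in that of sgTrp53+MYC tumors.

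Odc1 encodes ornithine decarboxylase, the enzyme that commits ornithine to the pathway. Its 5 livers read 81.6, 81.3, 84.5, 110.2 and 94.6 CPM. The FGF19+MYC tumors read 644.7, 496.8, 563.9, 599.9 and 469.0 CPM, the Aldafermin+MYC tumors 671.2, 539.0, 529.8, 419.1 and 859.1, and the sgTrp53+MYC tumors 788.4, 594.7, 376.2, 472.6 and 603.5. The lowest tumor was thus far above the highest liver, and the 3 tumor groups covered one another. The log2 fold change was 2.68 ± 0.20 (SE) for the pooled tumors (edgeR's quasi-likelihood test with Benjamini-Hochberg adjustment over all genes, adjusted p = 4.22e-10) and 2.65 ± 0.21 for sgTrp53+MYC tumors (adjusted p = 1.73e-09).

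Srm encodes spermidine synthase. Livers read 25.9, 31.2, 31.9, 25.0 and 32.6 CPM. It reached 671.1, 743.0, 744.5, 727.7 and 668.5 CPM in FGF19+MYC tumors, 806.5, 691.5, 581.1, 549.5 and 590.7 in Aldafermin+MYC tumors and 452.5, 435.5, 355.3, 555.4 and 627.6 in sgTrp53+MYC tumors. The FGF19+MYC tumors lay close together, with a coefficient of variation of 5.36%, against 16.4% in Aldafermin+MYC and 22.0% in sgTrp53+MYC tumors. The log2 fold changes against liver were 4.53 ± 0.17 (SE) for the pooled tumors and 4.05 ± 0.18 for sgTrp53+MYC tumors (quasi-likelihood test, adjusted p = 9.93e-14 and 4.64e-13). All tumors lay far above all livers, and the change in the pooled tumors ranked 797 in size among the 14333 genes.

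Sms encodes spermine synthase, which lies on the X chromosome. The livers were tightly set at 6.77 to 7.92 CPM. The tumors ranged from 40.5 to 100.9 CPM in FGF19+MYC, 42.7 to 106.7 in Aldafermin+MYC and 58.8 to 130.3 in sgTrp53+MYC, so that tumors of a group differed among themselves by more than 2-fold. The log2 fold changes were 3.19 ± 0.27 (SE) and 3.47 ± 0.29 (quasi-likelihood test, adjusted p = 2.51e-09 and 2.81e-09). A pseudogene, Sms-ps, took 16.9%, 18.3% and 12.1% of the reads of both rows in Aldafermin+MYC, FGF19+MYC and sgTrp53+MYC tumors and 22.9% in livers, and adding its counts to Sms left the calls in place.

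Amd1 encodes S-adenosylmethionine decarboxylase, which supplies the aminopropyl donor. It had the smallest rise of the 4 synthesis genes. Livers read 33.3, 34.3, 49.7, 29.9 and 50.4 CPM, and tumors 104.5 to 163.5 in FGF19+MYC, 87.4 to 145.9 in Aldafermin+MYC and 124.5 to 203.3 in sgTrp53+MYC. The log2 fold change was 1.65 ± 0.18 (SE) for the pooled tumors and 2.07 ± 0.20 for sgTrp53+MYC tumors (quasi-likelihood test, adjusted p = 8.35e-08 and 1.97e-08). The 8 rows of Amd2 and the Amd pseudogenes held at most 4.50% of the reads of the set in any library.

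MYC binds DNA as a dimer with MAX at the E-box CACGTG, and also at the related CACGCG. Both were searched on both strands (CACGTG is its own reverse complement, CACGCG reads CGCGTG on the other strand, and a CACGTG shares no base with a CACGCG in either orientation) in the RefSeq promoter windows of build GRCm38.p6, which hold 250 bases before and 50 after each start. Of the 10 genes, 8 had a window, and Srm and Azin1 had none. CACGTG was in 7.15% of all 32851 windows and, among the 8 genes, in 1 of the 2 windows of Sms, 196 bases before the start. CACGCG was in 9.27% of all windows and in those of Odc1, Oaz1 and the other window of Sms. The same search covered the 2000 bases downstream of the start of the canonical transcript in GENCODE on GRCm39, the build of the counts. There, 24.6% of 20241 protein-coding genes of that length held CACGTG and 4.48% held it at least 2 times. Of the 8 genes, Odc1 held it 2 times and Sms, Amd1 and Paox 1 time each, while Sat1, Smox, Oaz1 and Oaz2 held none in this window. CACGCG was in 29.6% of the 20241 genes and at least 2 times in 10.2%. Odc1 held CACGCG 2 times, Sms 1 time and Amd1 3 times, and Sat1, Smox, Paox, Oaz1 and Oaz2 did not hold it. Srm and Azin1 were not looked up there, because only genes with a promoter window were. The CACGTG matches of Odc1, Sms and Amd1 were intronic and that of Paox exonic. The intron stretches around these matches, read 5′ to 3′ on the strand of each gene with CACGTG in capitals, are shown because they belong to the 3 synthesis genes with a window, and no binding was measured here. The Odc1 stretch lies at chr12:17595170-17595294 (GRCm39, plus strand), with the matches 40 bases apart. The Sms stretch is at chrX:156273751-156273856 and the Amd1 stretch at chr10:40176723-40176828, both on the minus strand of GRCm39.
Odc1: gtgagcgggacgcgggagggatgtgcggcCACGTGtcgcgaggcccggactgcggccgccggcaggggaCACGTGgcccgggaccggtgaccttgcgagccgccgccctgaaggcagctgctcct
Sms: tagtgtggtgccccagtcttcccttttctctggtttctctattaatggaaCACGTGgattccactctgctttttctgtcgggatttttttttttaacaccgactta
Amd1: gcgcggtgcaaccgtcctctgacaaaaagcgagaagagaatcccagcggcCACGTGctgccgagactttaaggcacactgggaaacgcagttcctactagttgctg

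The breakdown enzymes did not follow the synthesis genes. None of Sat1, Smox and Paox rose in either comparison with liver under TMM scaling, Sat1 and Smox passed no threshold, and Paox was lower. Of all 10 genes, 4 were lower in the pooled tumors (Paox, Oaz1, Oaz2 and Azin1), where 34.5% of all genes tested were, and the same 4 were lower in sgTrp53+MYC tumors, where 33% were. Scaling by total counts alone gave 5 higher genes and 1 lower gene in the pooled tumors and 5 higher and 0 lower in sgTrp53+MYC tumors. Over all 14333 genes tested, it gave 8763 higher and 2629 lower in the pooled tumors, and 8534 and 2423 in sgTrp53+MYC tumors. Of the 10 genes, the fifth higher one was Sat1 and the lower one Paox. The falls below are thus relative to the other genes of the same libraries, and most of them depend on the scaling.

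Sat1 encodes spermidine/spermine acetyltransferase, the rate-limiting step of breakdown. Livers read 56.1, 67.0, 56.2, 76.2 and 82.6 CPM. FGF19+MYC tumors read 66.3, 44.5, 44.1, 46.4 and 53.9 CPM, Aldafermin+MYC tumors 48.1, 51.7, 80.7, 48.7 and 80.7, and sgTrp53+MYC tumors 105.7, 58.2, 46.2, 35.4 and 45.5. All groups overlapped, and the highest value was that of 1 sgTrp53+MYC tumor. The log2 fold change against liver was -0.27 ± 0.21 (SE) for the pooled tumors (95% confidence interval -0.72 to 0.18, quasi-likelihood test, adjusted p = 0.264) and -0.22 ± 0.25 for sgTrp53+MYC tumors (-0.74 to 0.31, adjusted p = 0.446). Sat1 was called higher with total counts only, at 0.57 and 0.64 (adjusted p = 0.00941 and 0.0114), and lower with GC content and exon length corrected, at -0.41 and -0.48 (adjusted p = 0.00692 and 0.0082). Without sgTrp53+MYC 1 it was called lower in sgTrp53+MYC tumors, at -0.54 (adjusted p = 0.021).

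Smox encodes spermine oxidase and was the lowest gene of the 10 per kilobase of transcript in every group, with 55 to 723 counts per library. It read 5.52 to 9.36 CPM in livers, 1.67 to 4.22 in FGF19+MYC tumors, 4.62 to 12.9 in Aldafermin+MYC tumors and 1.35 to 10.1 in sgTrp53+MYC tumors. The livers lay above all FGF19+MYC tumors, but not above all Aldafermin+MYC or sgTrp53+MYC tumors. Log2 fold changes against liver were -0.55 ± 0.38 (SE) for the pooled tumors and -0.75 ± 0.44 for sgTrp53+MYC tumors (quasi-likelihood test, adjusted p = 0.197 and 0.138), and with total counts only they were 0.31 and 0.16. The FGF19+MYC tumors alone were lower by 1.11 (95% confidence interval -2.06 to -0.15, adjusted p = 0.0353), and sgTrp53+MYC tumors were called lower without sgTrp53+MYC 2 (-1.44, adjusted p = 0.00225). That tumor, the highest of its group for Smox, stood apart in the 3 biliary markers, with Krt7 at 80.9, Krt19 at 191 and Epcam at 22.2 CPM against at most 0.265, 2.33 and 0.715 in the other sgTrp53+MYC tumors, and their part in the Smox value was not tested.

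Paox encodes peroxisomal polyamine oxidase, which oxidizes acetylated polyamines. Livers read 40.9, 48.8, 51.0, 52.9 and 57.3 CPM. FGF19+MYC tumors read 33.4, 18.3, 17.7, 16.5 and 19.2 CPM, Aldafermin+MYC tumors 20.4, 22.1, 20.1, 14.9 and 22.7, and sgTrp53+MYC tumors 48.3, 42.9, 30.0, 18.98 and 30.7. All tumors with FGF19 or Aldafermin lay below all livers, while 2 of the 5 sgTrp53+MYC tumors lay within their range. Paox was 2.45-fold lower in the pooled tumors (log2 fold change -1.29 ± 0.19, quasi-likelihood test, adjusted p = 4.03e-06), and it stayed lower with total counts only (-0.46, adjusted p = 0.0151). In sgTrp53+MYC tumors the log2 fold change was -0.55 ± 0.22 (adjusted p = 0.0332). That call was lost in 5 of 10 fits that left out 1 library (Liver 4, Liver 5 and sgTrp53+MYC 3, 4 and 5, with values from -0.55 to -0.40), without a filter on low counts (-0.27), with only the compared groups (-0.41) and with the GC correction (-0.54), and with total counts only the sign turned to 0.31.

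The antizymes and the antizyme inhibitor were lower in tumors only relative to the bulk of genes. Oaz1 encodes the main antizyme of ornithine decarboxylase and read 422.3, 490.3, 407.2, 683.0 and 656.0 CPM in livers. Tumors read 259.2 to 479.4 CPM in FGF19+MYC, 275.0 to 548.2 in Aldafermin+MYC and 229.0 to 448.2 in sgTrp53+MYC, with overlap in each group. Oaz1 fell by 0.59 on the log2 scale in the pooled tumors (SE 0.20, quasi-likelihood test, adjusted p = 0.0121) and by 0.80 in sgTrp53+MYC tumors (SE 0.24, adjusted p = 0.00539), but was at 0.25 and 0.07 with total counts only and no longer called. Both calls were also lost without a filter on low counts (-0.41 and -0.51, adjusted p = 0.119 and 0.0982), and that of the pooled tumors with Aldafermin+MYC tumors alone (-0.50, adjusted p = 0.0642).

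Oaz2 encodes a second antizyme. Livers read 31.1 to 42.1 CPM, above all FGF19+MYC (17.8 to 25.8), Aldafermin+MYC (22.8 to 28.7) and sgTrp53+MYC tumors (21.0 to 28.0). It fell by 0.60 on the log2 scale (SE 0.11, quasi-likelihood test, adjusted p = 5.99e-05) in the pooled tumors and by 0.57 (SE 0.13, adjusted p = 0.000661) in sgTrp53+MYC tumors, and with total counts only the signs turned to 0.25 and 0.33. These latter values did not pass the threshold (adjusted p = 0.104 and 0.0675), and without a filter on low counts the call in sgTrp53+MYC tumors was lost (-0.28, adjusted p = 0.125).

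Azin1 encodes the antizyme inhibitor, a relative of ornithine decarboxylase without its activity. Livers read 120.7, 178.7, 181.9, 96.1 and 139.5 CPM. FGF19+MYC tumors read 70.3, 60.7, 63.0, 65.7 and 60.5 CPM, Aldafermin+MYC tumors 61.7, 68.4, 66.7, 66.9 and 89.9, and sgTrp53+MYC tumors 104.1, 86.4, 114.9, 75.7 and 108.5. On average the sgTrp53+MYC tumors lay between the other tumors and the livers, and they overlapped with both. Azin1 was lower by 1.09 on the log2 scale in the pooled tumors (SE 0.14, quasi-likelihood test, adjusted p = 6.69e-07) and by 0.55 in sgTrp53+MYC tumors (SE 0.16, adjusted p = 0.00572), whereas total counts only gave -0.26 and 0.33, neither of them called. In sgTrp53+MYC tumors the call was also lost without a filter on low counts (-0.27, adjusted p = 0.245) and with only the compared groups in the fit (-0.42, adjusted p = 0.0741).

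**Figure D2:**
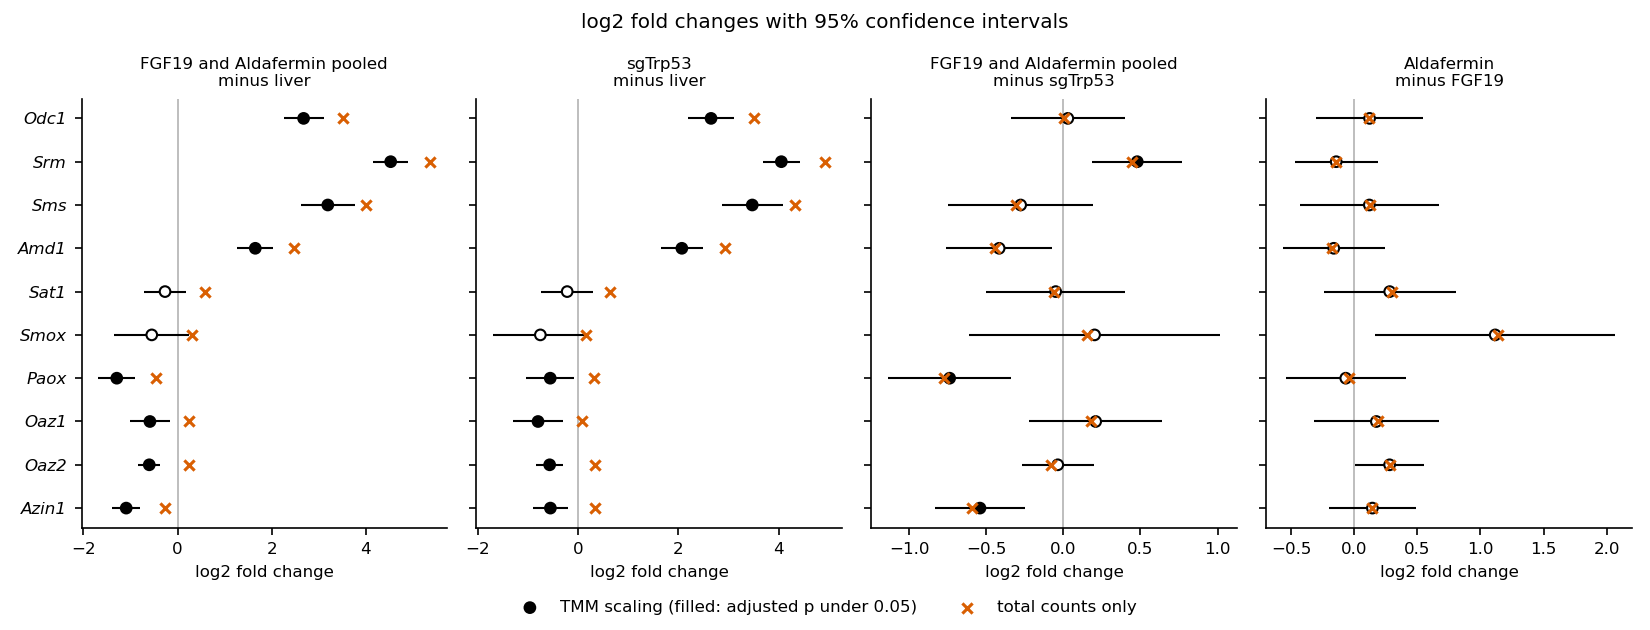
Log2 fold change of each polyamine gene in the 4 comparisons, with circles and 95% confidence intervals from the TMM-scaled fit (filled at an adjusted p under 0.05) and crosses for total counts only. Odc1, Srm, Sms and Amd1 stay right of 0 against liver with either scaling, whereas Oaz1 and Oaz2 in both liver panels, and Paox and Azin1 in the sgTrp53 panel, are left of 0 with TMM and right of 0 with total counts.

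Ratios between genes of 1 library do not depend on the scaling between libraries, and dividing CPM by the length of the canonical transcript in kilobases puts different genes on a common scale. In CPM per kilobase, Odc1 stood at 0.0787 ± 0.0115 (SD, n = 5) of Oaz1 in livers. It stood at 0.784 ± 0.194 in FGF19+MYC, 0.724 ± 0.0567 in Aldafermin+MYC and 0.844 ± 0.112 in sgTrp53+MYC tumors, and the lowest tumor, at 0.607, was far above the highest liver, at 0.0937. The message of the decarboxylase was thus far below that of its antizyme in every liver and near it in every tumor. The ratio of Odc1 to Azin1 was 1.56 ± 0.641 in livers, against 19.7 ± 1.46, 19.4 ± 4.02 and 13.5 ± 3.77 in the tumor groups in the same order. Sat1 exceeded Srm in livers (2.71 ± 0.563) and was a small share of it in the tumors (0.0842 ± 0.0198, 0.116 ± 0.0421 and 0.147 ± 0.0787). The ratio of Srm to Sms was 11.3 ± 1.44 in livers, 33.9 ± 9.98 in FGF19+MYC and 28.1 ± 7.89 in Aldafermin+MYC tumors, while that of sgTrp53+MYC tumors (18.3 ± 6.96) overlapped with the livers. The ratio of Oaz2 to Oaz1 kept to 0.0373 to 0.0466 on average in all 4 groups. These ratios are descriptions and were not tested.

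**Figure D3:**
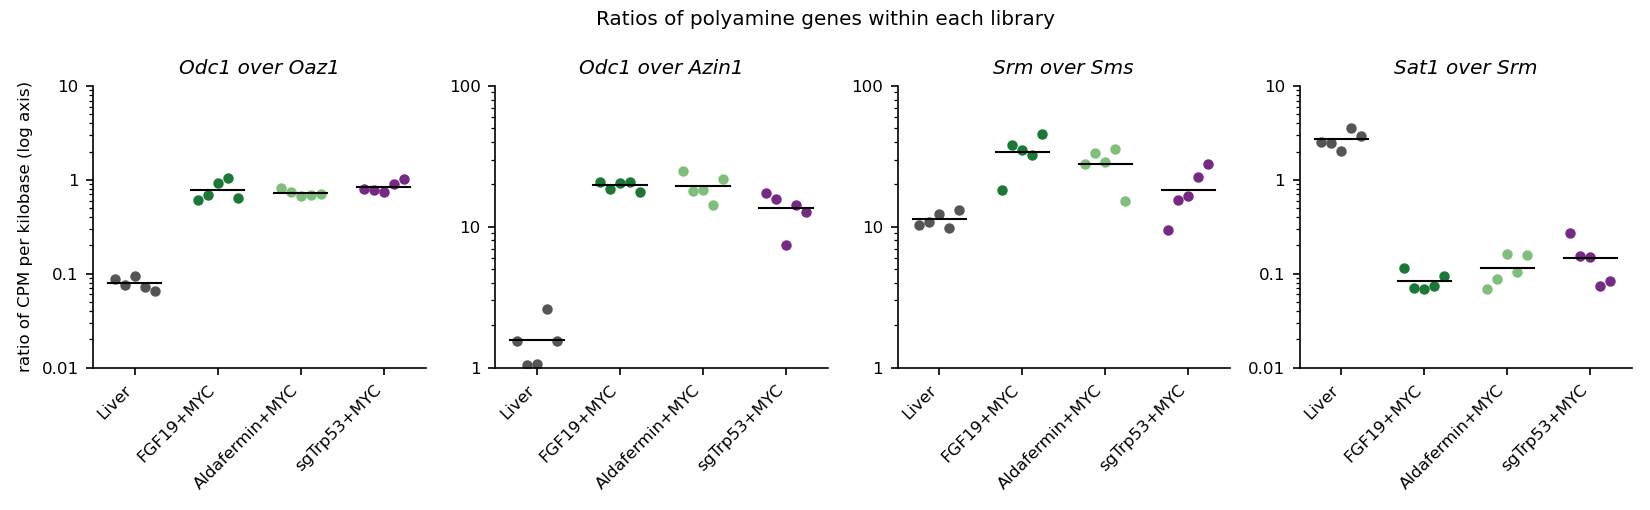
Ratios of CPM per kilobase between pairs of polyamine genes within each library, on log axes, with a point per library and a line at the group mean. Odc1 over Oaz1 and Odc1 over Azin1 lie higher in all 15 tumors than in all 5 livers, Sat1 over Srm lies lower in all 15, and Srm over Sms overlaps between livers and sgTrp53+MYC tumors.

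The order of the 10 genes by level changed accordingly. In livers Oaz1 held 72.4% ± 3.70 (SD, n = 5) of their summed CPM per kilobase, and Srm held 3.19% ± 0.711. In tumors Srm held the largest mean share, with 43.7%, 39.1% and 34.6% in FGF19+MYC, Aldafermin+MYC and sgTrp53+MYC, ahead of Oaz1 with 26.2%, 29.0% and 27.7% and Odc1 with 19.9%, 20.9% and 23.1%. Sms, Amd1, Smox, Paox, Oaz2 and Azin1 held less than 5% each on average in every group. Ranked by mean CPM per kilobase among the 13847 tested genes with a known length, Srm moved from place 2949 in livers to places 109, 123 and 140 in those tumor groups, and Odc1 from 1859 to 230, 214 and 211. Sat1 kept a similar place (1343 in livers and 1304 to 1542 in tumors), as did Oaz1 (179 and 150 to 163). All 10 genes together took 0.0640% ± 0.00797 of the counted reads in livers and 0.213% to 0.228% on average in the tumor groups.

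The pooled tumors differed from sgTrp53+MYC tumors in 3 of the 10 genes. Srm was higher, where 11.6% of all genes tested were higher, and Paox and Azin1 were lower, where 12.1% were lower. Srm was 1.39-fold higher (log2 fold change 0.48 ± 0.14, quasi-likelihood test, adjusted p = 0.0165), with tumors of 549.5 to 806.5 CPM against 355.3 to 627.6. Paox was 1.67-fold lower (-0.74 ± 0.19, adjusted p = 0.00843) and Azin1 1.45-fold lower (-0.54 ± 0.14, adjusted p = 0.00875), and in all 3 genes the groups overlapped. The call of Srm was lost without sgTrp53+MYC 3 (0.38, adjusted p = 0.0566), without a filter on low counts (0.37, adjusted p = 0.124) and once GC content and exon length were corrected for (0.19, adjusted p = 0.458), as was that of Azin1 with this correction (-0.25, adjusted p = 0.149). With Aldafermin+MYC tumors alone, Srm was at 0.41 and Azin1 at -0.47 (adjusted p = 0.0752 and 0.0539). With FGF19+MYC tumors alone, Srm was at 0.55 and Azin1 at -0.61 (quasi-likelihood test, adjusted p = 0.0218 and 0.0164). In these 2 genes the FGF19+MYC tumors did not overlap with the sgTrp53+MYC tumors.

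For Odc1 the difference between these tumors was 0.03 on the log2 scale, with a 95% confidence interval of -0.34 to 0.40. The tumors of all 3 groups overlapped. Amd1 was lower by 0.42 (-0.76 to -0.07, quasi-likelihood test, adjusted p = 0.0683) and missed the threshold, which it passed without Aldafermin+MYC 5, without FGF19+MYC 4 and without sgTrp53+MYC 3 (-0.50 to -0.46), with DESeq2 (-0.45, adjusted p = 0.0382) and with total counts only (-0.45, adjusted p = 0.0447). The differences of Sms (-0.28), Sat1 (-0.05), Smox (0.20), Oaz1 (0.21) and Oaz2 (-0.04) had adjusted p of 0.395 to 0.893. The 5 macrophage markers summed to 83 to 164 CPM in sgTrp53+MYC tumors against 150 to 460 in the other tumors and the 6 hepatocyte markers to 3160 to 10500 against 7790 to 28400, with no marker of either list under 1 CPM on average in any group. Single markers of both lists did not all follow their sums. Cps1 stood at 1430 CPM in sgTrp53+MYC 1, against 342 to 908 in the FGF19+MYC and Aldafermin+MYC tumors. In that tumor the macrophage markers Clec4f (13.2 CPM), Adgre1 (14) and Csf1r (19) lay within the range of the FGF19+MYC and Aldafermin+MYC tumors. Its Cd68 (39.6) and Cd5l (34.3) lay below that range. Of 3 muscle markers, Ckm alone was high in sgTrp53+MYC tumors, at 16.7 to 549 CPM against at most 0.461 in the other tumors. Mylpf was at 1.30 to 3.82 against 1.63 to 3.80 CPM, and Acta1 at most at 0.198 in sgTrp53+MYC and 0.328 in the other tumors. The part of other cells in the differences of Srm, Paox and Azin1 was not tested.

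Aldafermin differs from FGF19 at its amino terminus. None of the 10 genes passed the threshold between their tumors, and 0% of all genes tested did by edgeR's quasi-likelihood test, with 1048 of 14333 at an unadjusted p under 0.05. Over all genes, the likelihood ratio test called 52 higher and 7 lower, DESeq2 73 and 23, and the quasi-likelihood test 16 and 13 without Aldafermin+MYC 4 and 6 and 0 without Aldafermin+MYC 2. The largest difference was that of Smox, at 4.62, 5.14, 12.9, 6.15 and 5.19 CPM in Aldafermin+MYC and 3.07, 4.22, 3.23, 1.67 and 3.48 in FGF19+MYC tumors. The groups did not overlap, and Smox was 2.17-fold higher with Aldafermin (log2 fold change 1.12, 95% confidence interval 0.16 to 2.07, quasi-likelihood test, adjusted p = 0.554). The tumor with the highest Smox, Aldafermin+MYC 3, also had the highest sum of the 4 stellate cell and fibroblast markers (958 CPM, against 55.4 to 339 in the other tumors of both groups), and without it the Smox difference was 0.75. Col1a1 made up 871 CPM of that sum and Pdgfrb, also the highest of these tumors, 52.7, while Dcn (33.5) and Lrat (0.961) were not the highest. The same tumor had the highest values of both groups for the macrophage markers Adgre1 (58.1 CPM), Cd68 (130.0) and Csf1r (106), but not Clec4f (1.89) and Cd5l (154), and for the endothelial markers Pecam1 (49.8) and Cdh5 (72.2), but not Stab2 (21.9) and Kdr (22.9). Over the 11 settings other than leaving out 1 library, the Smox difference was 1.04 to 1.17. It passed the threshold in 0 of these settings, with a highest adjusted p of 0.631. The part of these cells was not tested.

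The other 9 genes differed by -0.16 to 0.28 on the log2 scale between Aldafermin+MYC and FGF19+MYC tumors. The intervals were -0.30 to 0.55 for Odc1, -0.47 to 0.19 for Srm, -0.43 to 0.67 for Sms and -0.56 to 0.24 for Amd1. Oaz2 was higher by 0.28 (0.01 to 0.55) at an unadjusted p of 0.0424 and an adjusted p of 0.657 by the quasi-likelihood test.

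Within the tumor groups, 3 libraries held most of the high values. Aldafermin+MYC 5 was the highest of its group for 7 of the 10 genes, and FGF19+MYC 1 and sgTrp53+MYC 1 for 6 each, with Odc1, Sms, Sat1, Paox and Oaz1 common to all 3. These tumors also had the lowest summed proliferation markers of their groups (246, 232 and 266 CPM). Their TMM factors were the lowest of their groups too (1.043, 0.9967 and 1.038), and a lower factor raises every CPM of a library. The lead for Sat1 was small in Aldafermin+MYC, at 80.73 CPM in library 5 against 80.71 in library 3. The part of the scaling in these high values was not tested. Over the 15 tumors, as deviations of log2 CPM from the group means, Odc1 varied with Amd1 (r = 0.889), Sms (r = 0.873) and Oaz1 (r = 0.787), while its correlation with Srm was 0.314. Without those 3 tumors (12 left, chosen after their values were seen) the correlation of Odc1 was 0.910 with Amd1, 0.784 with Sms and 0.720 with Srm, but 0.511 with Oaz1. Srm and Oaz2 ran against each other, at -0.647 over 15 and -0.815 over 12 tumors. The points share library size, scaling and tissue composition, and the values are descriptions. In a fit without the 3 tumors, the 4 synthesis genes stayed higher than liver, and Sat1 was called lower in both the pooled (-0.39, adjusted p = 0.0244) and the sgTrp53+MYC tumors (-0.51, adjusted p = 0.0151).

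Over all 20 libraries, the genes whose log2 CPM was most like that of Odc1 were Ppp1r8 (r = 0.9933), Nutf2 (r = 0.9933) and Cct3 (r = 0.9932). Those most like Sat1 were Sdhaf2 (r = 0.8910), Cstb (r = 0.8849) and Serf2 (r = 0.8827). For Odc1 the 5 livers and 15 tumors form separate clusters along this measure, whereas Sat1 overlapped between them.

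Genes around the core pathway were described with a list of 31 genes, of which 25 were tested and 6 (Arg2, Slc22a2, Slc22a3, Slc12a8, Oaz3 and Satl1) were below the filter. In the pooled tumors 10 were higher than in liver, 11 lower and 4 not called, with a median log2 fold change of 0.162 beside 0.096 for all genes. In sgTrp53+MYC tumors 11 were higher, 6 lower and 8 not called (median 0.144 beside 0.071). With total counts only the splits were 16 higher to 5 lower and 17 to 5. Each gene named in the next 4 paragraphs with a change against liver kept its sign with total counts only, but Sat2 (-0.07 and -0.40) and Azin2 (-0.46) were then no longer called.

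The enzymes that supply or drain ornithine and agmatine were lower in tumors. Arg1, the arginase that makes ornithine in the urea cycle, averaged 2319 ± 269 CPM (SD, n = 5) in livers and 271 to 372 in the tumor groups (pooled log2 fold change -3.03 ± 0.34, quasi-likelihood test, adjusted p = 1.42e-07). Oat, ornithine aminotransferase, fell by 3.39 and Agmat, agmatinase, fell by 1.78 on the log2 scale in the pooled tumors, and by 2.86 and 1.73 in sgTrp53+MYC tumors. All 3 are hepatocyte genes as well, and the hepatocyte markers fell in the same tumors. The part of hepatocyte content in these falls was not tested.

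In the cycle that makes S-adenosylmethionine and recovers methionine, the liver form Mat1a fell and the form of dividing cells, Mat2a, rose. Mat1a fell by 4.11 in the pooled tumors (SE 0.43, quasi-likelihood test, adjusted p = 5.25e-08) and by 2.86 in sgTrp53+MYC tumors, from 5130 ± 824 CPM in livers. Mat2a rose by 1.52 and 1.58 from 107 ± 20.8 CPM. Mtap, the phosphorylase that recycles the by-product of spermidine and spermine synthesis, rose by 2.46 (SE 0.14, adjusted p = 9.80e-12) and 2.51, and Enoph1, a later enzyme of the same salvage, by 2.16 and 2.09. In all, 4 of these 8 genes were higher in both comparisons, where 39.2% and 36.9% of all genes tested were. In the same order 3 and 1 were lower, where 34.5% and 33% of all genes were.

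Spermidine is the donor for hypusine, a modified lysine of the translation factor eIF5A. All 4 genes of this step rose in both comparisons with liver, where 39.2% and 36.9% of all genes tested were higher. Eif5a rose by 2.02 (SE 0.16, quasi-likelihood test, adjusted p = 1.01e-09) in the pooled and 1.84 in sgTrp53+MYC tumors, from 520 ± 70.5 CPM in livers to 1860 to 2164 on average in the tumor groups. Dhps, deoxyhypusine synthase, rose by 1.89 and 1.40, and Dohh, the hydroxylase that completes hypusine, by 1.46 and 0.99. The paralog Eif5a2 rose by 2.46 and 2.75 from a level under 1 CPM.

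Of 6 polyamine transport genes tested, 2 were higher and 3 lower than liver in the pooled tumors, and 2 higher and 1 lower in sgTrp53+MYC tumors, where 39.2% and 36.9% of all genes tested were higher and 34.5% and 33% lower. Slc18b1, a vesicular polyamine transporter, rose by 2.36 and 1.39, and Slc3a2, a heavy chain of amino acid transporters, by 0.90 and 0.48. Of the relatives of the 10 genes, Sat2 was lower by 0.91 and 1.26, and Azin2 by 1.29 in the pooled tumors. Aoc1, a diamine oxidase, was higher in sgTrp53+MYC tumors than in liver by 2.94 (SE 0.74, quasi-likelihood test, adjusted p = 0.00152), at 1.25 ± 0.866 CPM.

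**Figure D4:**
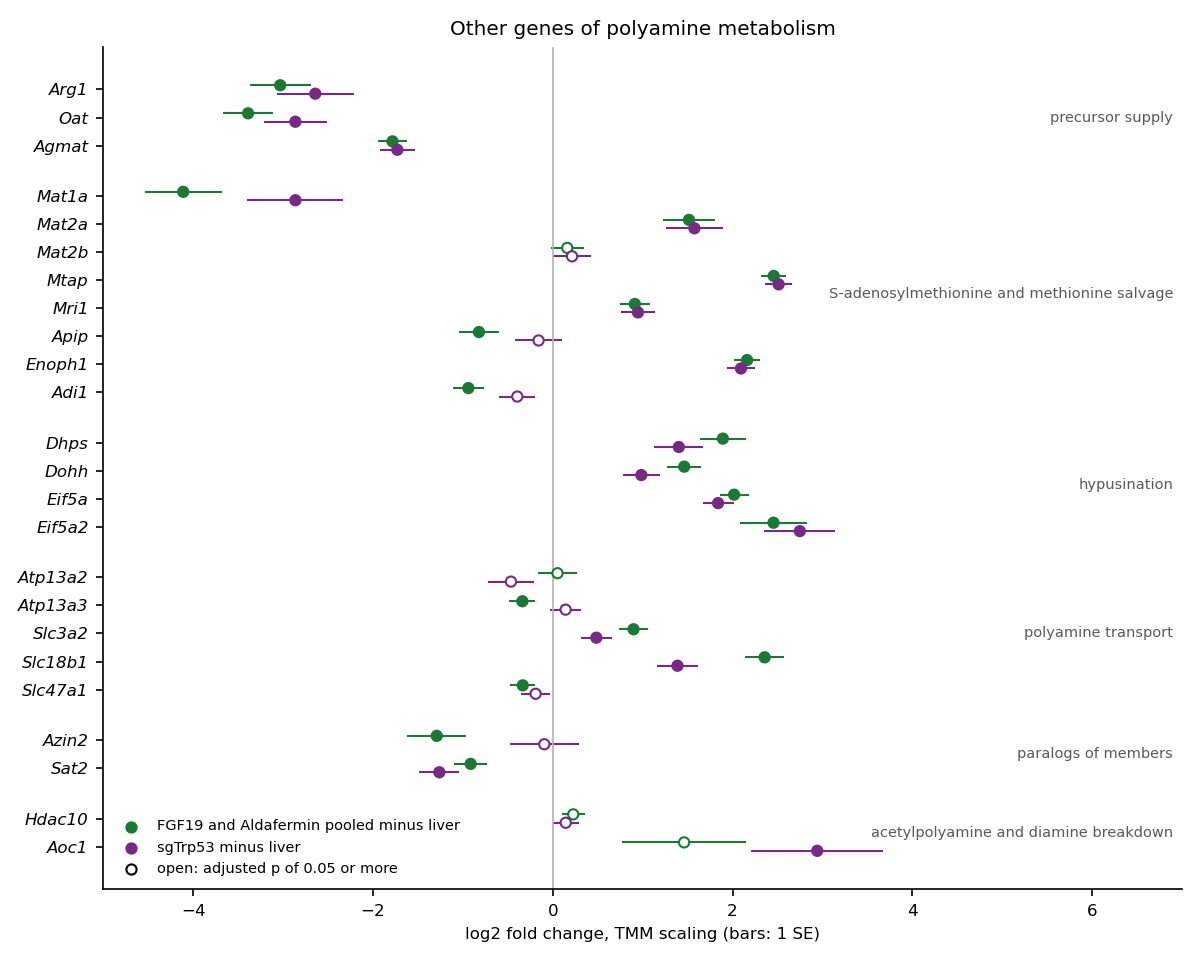
Log2 fold change against liver of tested genes around the polyamine pathway after TMM scaling (1 of the 25 is left out), in the 10 pooled tumors (green) and in sgTrp53+MYC tumors (purple), with bars of 1 SE and open circles for an adjusted p of 0.05 or more. The 4 hypusination genes lie right of 0 and the 3 precursor supply genes left of 0 in both with either scaling, while Atp13a3 and Slc47a1, left of 0 in the pooled tumors, turn to 0.50 and 0.51 with total counts only, and Apip to 0.01. In sgTrp53+MYC tumors Apip, Adi1, Atp13a2, Slc47a1 and Azin2 turn likewise.

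Set against sgTrp53+MYC tumors, the pooled tumors had 1 gene of the list higher, 6 lower and 18 not called. Of all genes tested, 11.6% were higher and 12.1% lower in this comparison. Slc18b1 was higher with FGF19 or Aldafermin (0.97 ± 0.20, quasi-likelihood test, adjusted p = 0.00182), and the lower genes were Aoc1 (-1.48), Mat1a (-1.25), Azin2 (-1.20), Apip (-0.66), Adi1 (-0.54) and Atp13a3 (-0.48), with adjusted p of 0.0117 to 0.0468. Between Aldafermin+MYC and FGF19+MYC tumors none of the 25 was called, with log2 differences of -0.45 to 1.39.

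Annotated neighbors limit some of these rows. In GENCODE, exons of Oaz1 and Azin1 overlap genes on the other strand over 15.5% and 7.89% of their exonic bases, Odc1, Smox and Paox over 3.97%, 3.50% and 1.77%, and Sat1 a gene on its own strand over 4.85%. Small RNA genes lie on the same strand in exons of Odc1 (2.40%) and Oaz1 (2.92%), and Azin1 shares 1.66% with a second entry of its name. The libraries kept strand, but whether it was used in counting is not given in the sources used here. Srm, Sms, Amd1 and Oaz2 had no such overlap.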

How the data were processed

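Per the methods of the study, the authors made stranded mRNA libraries, aligned the reads with HISAT2 to mouse genome mm39 and ran htseq-count with NCBI's RefSeq genes. What the authors deposited are 2 tables of raw counts by gene symbol, without normalization. Genes had to reach 1 CPM in 5 or more libraries, which 14333 did, and they entered 1 model of 4 groups with edgeR 4.0.16 (R 4.3.3, TMM scaling, quasi-likelihood test), and p-values were adjusted by Benjamini-Hochberg over all of these genes with a threshold of 0.05. The 5 summary lines of htseq-count stayed out, and 0 sample columns were left out. Positions and lengths are from GENCODE on GRCm39. The fit was tested on simulated counts for Aldafermin+MYC against FGF19+MYC tumors only. Livers were drawn there at the mean of FGF19+MYC tumors, so the comparisons with liver were not tested in this way. The 10 genes, the wider list and the markers were chosen with earlier results of these data known. Named genes were all 10, near copies, up to 3 called genes with the largest change per group of the wider list, and the 3 genes most alike to Odc1 and Sat1. Mat2a, Dohh and, in the list plot, Atp13a2, Atp13a3 and Slc47a1 were chosen after their values were seen. Alternatives were DESeq2 1.42.0 and its size factors, a likelihood ratio test, other filters, total counts, fewer groups, a replicate block, a GC correction, 1 library left out, and, chosen after seeing the data, near copies added and 3 tumors left out. No 2 libraries of the same group were copies (chi-square over degrees of freedom at least 15.0; pairs across groups were not compared). The values of 1 gene of the wider list are not reported here, and the counts over the list include it.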

Additional observations from a re-analysis of the deposited data

Results flagged for a closer look

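In groups of 5 libraries, the highest or lowest value was set against the other 4 with Dixon's criterion for each of the 10 genes, in 40 groups of values, of which chance alone gives about 2. It marked 4. Sms stood at 130.3 CPM in sgTrp53+MYC 1, with the next tumor of the group at 77.8. Smox stood at 12.89 CPM in Aldafermin+MYC 3, with the next at 6.15. Paox stood at 33.38 CPM in FGF19+MYC 1, with the next at 19.2. Azin1 stood at 89.94 CPM in Aldafermin+MYC 5, with the next at 68.4. Of these 4 tumors, 3 were those with the lowest proliferation markers of their groups, and Aldafermin+MYC 5 and FGF19+MYC 1 also had the highest sums of 3 neutrophil markers among the tumors of the first table (21.3 and 14.4 CPM, against 0.874 to 2.47 in the other 8). Among sgTrp53+MYC tumors the highest such sum was that of sgTrp53+MYC 4 (13.7 CPM), with sgTrp53+MYC 1 at 2.29.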

How the results depend on the processing

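Values are log2 fold changes. The rises of Odc1, Srm, Sms and Amd1 against liver passed the threshold in all 13 (pooled tumors) and 11 (sgTrp53+MYC) settings and in every fit with 1 library left out. With total counts only, pooled tumors against liver gave Sat1 0.5749, Smox 0.312, Oaz1 0.2465 and Oaz2 0.2511, and sgTrp53+MYC tumors gave Sat1 0.6359, Smox 0.158, Paox 0.312, Oaz1 0.0688, Oaz2 0.3277 and Azin1 0.3329, with 5 of 10 genes called. All genes then split into 8763 higher and 2629 lower (5616 and 4945 with TMM) and 8534 and 2423 (5286 and 4733), so the construction of the scaling moves these values. Without a filter on low counts, 4 genes were called for sgTrp53+MYC tumors against liver, with Sat1 at 0.0682.

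Between pooled and sgTrp53+MYC tumors, 1 gene was called with the GC content and exon length correction and 1 with Aldafermin+MYC tumors alone. Odc1 was there at -0.0071 with DESeq2 and with its size factors, -0.0734 without a filter, -0.0633 with the GC correction and -0.0314 with FGF19+MYC tumors alone. The GC correction gave Sat1 0.0634 and Oaz1 -0.1327, Aldafermin+MYC alone gave Sat1 0.091 and Oaz2 0.1043 (and Smox 0.0104 against liver), and FGF19+MYC alone gave Smox -0.3555. With 3 tumors left out, Sat1 was at 0.1243 and Smox at -0.0134, and between Aldafermin+MYC and FGF19+MYC tumors Odc1 was at -0.0143 and Paox at 0.0781. The cause was not tested for these.

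With 1 library left out, 8, 7 to 9, 3 to 4 and 0 genes were called in the 4 comparisons. Signs turned within -0.0961 to 0.1756 (Odc1), -0.1849 to 0.2777 (Sat1), -0.0199 to 0.8912 (Smox) and -0.085 to 0.0265 (Oaz2) for pooled against sgTrp53+MYC tumors, and within -0.0588 to 0.2292 (Odc1), -0.1231 to 0.3556 (Sms), -0.1431 to 0.161 (Paox) and -0.0227 to 0.3438 (Oaz1) for Aldafermin+MYC against FGF19+MYC.

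The replicate numbers did not pair the samples (30 same-numbered pairs, r -0.333 to 0.333, 6 over 0.1). A replicate block gave 8, 9, 3 and 0 called genes, the added one being Smox in sgTrp53+MYC tumors against liver (-1.05, adjusted p = 0.0457 by edgeR's quasi-likelihood test). Smox, at 55 to 723 counts per library, is the gene whose depth limits it most.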
